A study of Mus musculus with 2 samples.

Results

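Birc2, Birc3, Yap1, Traf2, Map3k14 and Tnfrsf12a were followed through MC38 tumours of mice that received the SHP2 inhibitor SHP099 or its vehicle. They encode the receptor of the cytokine TWEAK (Tnfrsf12a), the adaptor it recruits (Traf2), the ubiquitin ligases cIAP1 and cIAP2 that ride on the adaptor (Birc2 and Birc3), the kinase those ligases keep low (Map3k14, or NIK), and the transcriptional coactivator whose gene lies beside the ligases (Yap1). These are 6 of the 31053 features in the deposited matrices, found by symbol (identifiers ENSMUSG00000057367, ENSMUSG00000032000, ENSMUSG00000053110, ENSMUSG00000026942, ENSMUSG00000020941 and ENSMUSG00000023905, in that order), and they were picked because their levels in these libraries had been seen. All levels and differences between the libraries below are therefore descriptions. MC38 is a mouse colon carcinoma line, and its cells had been injected under the right flank of C57BL/6 mice. From day 5, when tumours averaged 100 mm3, 6 mice received SHP099 at 5 mg/kg by stomach tube each day for 14 days, and 6 mice received PBS and are also labelled untreated. SHP099 holds the phosphatase SHP2, the product of Ptpn11, in its inactive shape. Each arm gave 1 library of dissociated whole tumour, with no sorting step stated, and the sources used here do not give the number of tumours per library, the sex and age of the mice, or the clone of the line. Host cells of an intact immune system are therefore mixed with the injected cells, and no difference between control and SHP099 has a replicate check.

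TWEAK, encoded by Tnfsf12, is a ligand of the tumour necrosis factor family, and its receptor Fn14, encoded by Tnfrsf12a, is known as a gene of injured, growing and malignant tissue. In resting cells TRAF2 brings cIAP1 and cIAP2 to NIK, which they mark for destruction. When the receptor is engaged it draws TRAF2 and the ligases away, NIK builds up, and the alternative NF-kB pathway is switched on. The same ligases also modify RIPK1, which keeps tumour necrosis factor from killing the cell. YAP is the effector of the Hippo pathway, and its gene, Birc2 and Birc3 are amplified together in some mouse and human tumours.

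Birc2, Birc3 and Yap1 lay side by side on the minus strand of chromosome 9 of GRCm38, at chr9:7818227-7837064, chr9:7848699-7873186 and chr9:7931999-8004596 in GENCODE M21. Tnfrsf12a lay at chr17:23675445-23677468, Traf2 at chr2:25517982-25546940 and Map3k14 at chr11:103219762-103267472, all on the minus strand too. The 250 bases before the start of 4 of these genes are shown, because Birc2 and Birc3 were higher together in the Xist-negative cells of the SHP099 library, their neighbour Yap1 stayed within counting error, and Tnfrsf12a was lower. They come from RefSeq on GRCm38.p6, whose table held all 6 genes, and are read 5′ to 3′ on the minus strand, ending at the last base before the start. Capitals mark a match to 1 of 7 motifs searched on both strands.
Birc2, chr9:7837058-7837307: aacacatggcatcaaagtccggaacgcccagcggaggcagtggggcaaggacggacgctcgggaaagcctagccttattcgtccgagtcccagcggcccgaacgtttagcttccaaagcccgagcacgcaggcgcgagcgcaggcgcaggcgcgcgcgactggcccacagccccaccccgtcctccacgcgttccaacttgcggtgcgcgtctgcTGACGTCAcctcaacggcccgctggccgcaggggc
Birc3, chr9:7873171-7873420: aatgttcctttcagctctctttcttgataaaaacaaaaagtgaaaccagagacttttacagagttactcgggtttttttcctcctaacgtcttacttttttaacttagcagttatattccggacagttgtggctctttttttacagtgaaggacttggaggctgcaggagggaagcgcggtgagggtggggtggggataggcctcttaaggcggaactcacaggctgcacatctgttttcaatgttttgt
Yap1, chr9:8004597-8004846: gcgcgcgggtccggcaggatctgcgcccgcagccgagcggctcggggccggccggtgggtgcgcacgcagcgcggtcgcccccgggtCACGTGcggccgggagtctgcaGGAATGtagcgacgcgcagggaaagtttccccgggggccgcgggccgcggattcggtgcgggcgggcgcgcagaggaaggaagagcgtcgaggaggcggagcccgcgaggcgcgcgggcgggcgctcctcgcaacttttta
Tnfrsf12a, chr17:23677450-23677699: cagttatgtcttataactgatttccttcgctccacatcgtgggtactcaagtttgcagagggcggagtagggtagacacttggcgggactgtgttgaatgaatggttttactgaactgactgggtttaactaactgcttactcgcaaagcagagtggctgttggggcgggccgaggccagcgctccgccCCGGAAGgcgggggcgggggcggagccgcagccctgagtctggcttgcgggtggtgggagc
The motifs were the interferon response element (GAAA, any 2 bases, GAAA), the kappa-B site (by name), the TEAD site GGAATG, the AP-1 site TGANTCA, the cyclic AMP response element TGACGTCA, the ETS site CCGGAAG and the E-box CACGTG, and none of the matches overlap. Over windows of 300 bases, which run 50 bases past the start, they were found in 3.44%, 8.46%, 14.7%, 7.81%, 1.79%, 8.86% and 7.15% of 32851 mouse promoters. The Birc2 window held the cyclic AMP response element 35 bases before the start. The Yap1 window held a TEAD site and an E-box, that of Tnfrsf12a an ETS site and that of Map3k14 a TEAD site. The windows of Birc3 and Traf2 held none of these letters. A match is a string of letters, not evidence that a factor binds there.

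The control matrix held 8245 barcodes and 126218180 UMIs (unique molecular identifiers, each standing for 1 captured RNA molecule), and the SHP099 matrix 8263 barcodes and 112901642 UMIs. Filters left 7687 and 7702 cells, whose median depths were 9157 and 10751.5 UMIs. Of the barcodes, 100 occurred in both libraries, and leaving those cells out moved none of the 18 ratios of Xist-negative cells, phagocytes and T cells beyond its counting interval. Cells were grouped without using the 6 genes. Each named class other than the largest took its name from marker genes, and the names stand for likeness to a type only. The largest class is defined by the near absence of Xist, the transcript of X inactivation, which stood at 2.69 and 2.87 CPM (counts per 1000000 UMIs of the class) in control and SHP099, against 1045 and 1190 CPM in phagocytes. It held 4135 and 4240 cells in 7 clusters, at median depths of 24430 and 20300 UMIs, and each of its clusters carried between 5 and 7 of the 7 MC38 markers, among them Hmga2, Igf2bp2 and Igf2bp3. The defining epithelial gene Epcam was at 0 in both libraries, where 3 UMIs would be 0.029 and 0.033 CPM, and the 6 epithelial markers summed to 0.251 and 0.131 CPM. The class was set by its low Xist alone, and neither marker list entered its name. The cells are therefore called Xist-negative and not tumour cells. Whether all of them are injected MC38 cells was not tested. Phagocytes, which join macrophages and monocytes, gave 2517 and 2526 cells, T cells 518 and 396, NK cells 99 and 55, dendritic cells 84 and 76, fibroblasts 81 and 56, and endothelial cells 29 and 46. Plasmacytoid dendritic cells and pericytes gave at most 10 cells in a library, too few for a level to be read. A shallow cluster of 210 and 295 cells with macrophage markers stayed unnamed. Ptpn11, the target gene, stood at 53.9 and 55.6 CPM in the Xist-negative cells. SHP099 acts on the protein, so this level does not check the labels.

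Tnfrsf12a, the TWEAK receptor, was highest in the Xist-negative cells as a class and lower there in the SHP099 library. Birc2 showed the opposite pair of features, with low levels in phagocytes, fibroblasts and Xist-negative cells, its highest in lymphocytes and dendritic cells, and a higher level in SHP099 Xist-negative cells. Birc3 was also higher in those cells. Traf2, Map3k14 and Yap1 differed by at most 1.11-fold between the libraries there. Counting intervals in brackets or after a value are exact 95% Poisson intervals, or for ratios the 95% interval of the 2 counts, and cover counting error only. Ratios are SHP099 over control on the log2 scale after adding 0.5 CPM to both levels, and a gene is called where the ratio passed 1.5-fold.

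The receptor was measured in 26803 UMIs of the control and 16422 UMIs of the SHP099 Xist-negative cells. Its level there was 258 CPM in control (255 to 261) and 179 CPM in SHP099 (176 to 182). Fibroblasts, which make the collagen matrix, followed at 188 CPM and 87.0 CPM. Phagocytes stood at 86.1 and 56.5 CPM, dendritic cells at 80.1 and 81.9 CPM, and endothelial cells at 50.6 and 67.6 CPM. T cells and NK cells held the least, at 21.4 and 19.01 CPM and at 16.4 and 9.24 CPM. Over both libraries, the Xist-negative cells and the fibroblasts did not overlap in their counting intervals (219 to 223 and 122 to 168 CPM), while dendritic cells, phagocytes and endothelial cells overlapped one another, and so did T and NK cells. The unnamed shallow cluster stood at 143 and 101 CPM. Beside its macrophage markers it held the MC38 marker Hmga2 at 50.4 and 35.7 CPM and Xist at 206 and 467 CPM. Both lay between the levels of Xist-negative cells and phagocytes. The part of RNA from Xist-negative cells in its Tnfrsf12a level was not tested.

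Because free RNA from the many deep Xist-negative cells can enter other droplets, the receptor was set beside genes of those cells. The phagocyte level of Tnfrsf12a was 33.3% of the Xist-negative level in control and 31.6% in SHP099. For Hmga2, a chromatin protein gene that marks MC38 cells, the same shares were 3.102% and 4.19%, for Yap1 5.54% and 7.97%, and for Igf2bp2 6.85% and 6.54%. Igf2bp3, another MC38 marker, had shares of 15.6% and 27.9% in phagocytes, but in T cells it stood at 157% and 25.3% and so was not limited to the Xist-negative cells. In T cells Tnfrsf12a stood at 8.28% and 10.6% of the Xist-negative level, Hmga2 at 4.79% and 6.92%, Igf2bp2 at 2.57% and 5.97%, and Yap1 at 3.47% and 9.70%. After drawing every cell down to 2000 UMIs, 35.4% of control and 25.3% of SHP099 Xist-negative cells held a Tnfrsf12a UMI, against 15.9% and 11.1% of phagocytes and 3.95% and 2.50% of T cells. At full depth the shares of Xist-negative cells were 88.6% and 75.4%. Median depths before drawing were 24430 and 20300 UMIs in Xist-negative cells and 2396 and 2030 in T cells, of which 189 and 196 were too shallow and were left out. The part of free RNA in the T cell values was not tested beyond these shares.

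The ligand gene Tnfsf12 was found at low levels in several classes. It stood at 13.9 and 15.7 CPM in Xist-negative cells, 35.7 and 31.4 CPM in phagocytes, and 47.8 and 28.3 CPM in fibroblasts. T cells held 1.30 and 2.85 CPM. Endothelial cells held 23.8 and 36.4 CPM. The measured levels of phagocytes, fibroblasts and endothelial cells were thus above the Xist-negative level in both libraries. Fibroblasts and endothelial cells are small classes, and no counting intervals are given for Tnfsf12.

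**Figure D1:**
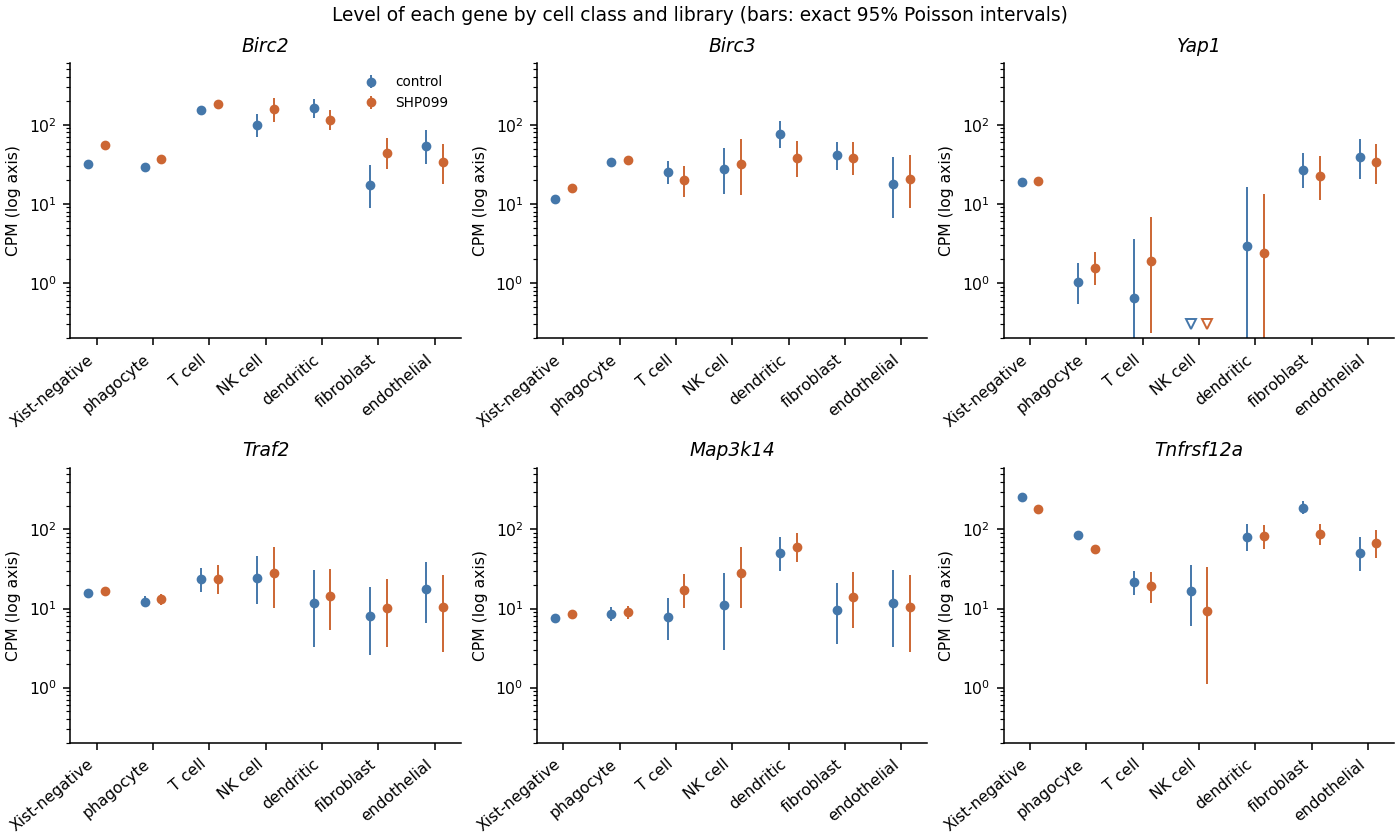
Level of each of the 6 genes in 7 cell classes, in CPM on a log axis, with 1 point per library and bars for exact 95% Poisson intervals; open triangles mark a level of 0, and bars that reach 0 are cut at the foot of the axis. Tnfrsf12a is highest in Xist-negative cells, Birc2 in T cells, dendritic cells and NK cells, and Yap1 is close to absent from immune cells.

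Traf2, the adaptor between the receptor and the ligases, was found at a low level in all of the larger classes. It ran from 7.97 CPM in control fibroblasts to 27.7 CPM in SHP099 NK cells. Xist-negative cells held 15.9 and 16.7 CPM, phagocytes 12.2 and 13.2 CPM, and T cells 23.3 and 23.8 CPM. Over both libraries the T cell interval (17.99 to 30.2 CPM) lay above those of Xist-negative cells (15.7 to 16.8 CPM) and phagocytes (11.3 to 14.2 CPM), and the smaller classes overlapped with several others.

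Birc2, which encodes cIAP1, was higher in lymphocytes and dendritic cells than in Xist-negative cells in both libraries. T cells held 154 CPM in control (135 to 175) and 181 CPM in SHP099 (156 to 208). Dendritic cells held 163 and 116 CPM, and NK cells 98.6 and 157 CPM. With the counts of both libraries joined, the intervals of these classes overlapped and lay above those of endothelial cells, phagocytes, fibroblasts and Xist-negative cells. Within a library the order was less clear, since in SHP099 the dendritic interval (85.2 to 153) lay below that of T cells, and in control the NK interval (69.04 to 136) overlapped that of endothelial cells (31.8 to 84.7). Endothelial cells stood at 53.6 and 33.8 CPM, phagocytes at 29.6 and 37.4 CPM, fibroblasts at 17.5 and 44.5 CPM, and Xist-negative cells at 32.2 and 55.0 CPM. The high level did not hold for the whole dendritic class. Its cells with more conventional than migratory dendritic markers held 38.6 and 51.5 CPM, from 6 and 11 UMIs. At 2000 UMIs per cell, a Birc2 UMI was found in 27.1% of T cells in control and in 60 of 200 in SHP099, against 8.08% and 11.97% of Xist-negative cells and 5.80% and 6.84% of phagocytes, so the order by share was the order by level.

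Birc3, which encodes cIAP2 and is a textbook NF-kB target, had another distribution. In control its highest well-counted class level was in dendritic cells, with 77.1 CPM (50.4 to 113). In SHP099 dendritic cells held 38.5 CPM (22.0 to 62.6), level with fibroblasts and phagocytes. With both libraries joined, the intervals of dendritic cells (40.2 to 75.5) and fibroblasts (29.3 to 53.7) overlapped. Fibroblasts held 41.5 and 38.4 CPM, phagocytes 34.0 and 35.7 CPM, and T cells 25.3 and 19.96 CPM. Xist-negative cells were at the low end, with 11.4 CPM (10.7 to 12.02) and 16.0 CPM (15.2 to 16.8). The phagocyte level of Birc3 was thus above the Xist-negative level in each library, whereas for Birc2 the order of these classes was the other way round, in control within overlapping intervals. The 2 ligase genes share 65 stretches of 50 bases between their transcripts, 1.42% of those of Birc2 and 1.28% of those of Birc3, so reads from those stretches could be split between them or dropped by the counting.

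Map3k14, the gene of NIK, stood out in dendritic cells. They held 50.4 CPM in control (29.4 to 80.7) and 60.2 CPM in SHP099 (39.0 to 88.9), from 17 and 25 UMIs. All other named classes with enough counts lay between 7.53 CPM, in control Xist-negative cells, and 27.7 CPM, in SHP099 NK cells with 6 UMIs. Phagocytes held 8.54 and 8.97 CPM and Xist-negative cells 7.53 and 8.43 CPM. T cells held 7.78 and 17.1 CPM, from 12 and 18 UMIs.

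Yap1 was found in Xist-negative and stromal cells and hardly in immune cells. Endothelial cells held 38.7 and 33.8 CPM, fibroblasts 27.1 and 22.3 CPM, and Xist-negative cells 18.7 and 19.6 CPM. Phagocytes held 1.03 and 1.56 CPM, and T cells 1 and 2 UMIs in all. NK cells held none, which allows up to 8.21 and 13.9 CPM at these totals. After drawing down to 2000 UMIs, 0.218% of control and 0.382% of SHP099 phagocytes held a Yap1 UMI, against 3.76% and 4.005% of Xist-negative cells. Of 200 SHP099 T cells with that depth none did, which allows a share of up to 1.5%.

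Between the libraries, Birc2 was the only member past 1.5-fold in the Xist-negative cells, where 1.36% of 7034 genes at 10 CPM or more were past it in either direction, 1.12% higher and 0.242% lower. Of the 6 genes 5 reached 10 CPM there, all but Map3k14. The log2 ratio of Birc2 was 0.76 (0.71 to 0.84), and 99.5% of these genes had a lower ratio. That of Birc3 was 0.47 (0.38 to 0.60), and that of Tnfrsf12a was −0.53 (−0.56 to −0.50), a ratio that 0.384% of genes were below. These differences were among those that chose the genes. Yap1 and Traf2 both had a log2 ratio of 0.07 and Map3k14 one of 0.15, beside a median of 0.02 over all genes. The call of Birc2 ended, with a ratio of 0.58, where cells were assigned by their own marker counts, and Tnfrsf12a passed the fold, at −0.60, where each cell counted alike. Depth and RNA composition moved with these differences, since the SHP099 cells were shallower, and held 24419 CPM of the nuclear transcript Malat1 against 17881 CPM and 3.60% mitochondrial UMIs against 3.08%. Among cells with 15000 to 30000 UMIs, which numbered 1876 and 2328, Birc2 stood at 34.9 and 55.3 CPM and Tnfrsf12a at 233 and 156 CPM.

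In phagocytes, where 6.32% of 6800 genes passed 1.5-fold, Tnfrsf12a was the only member past it, with a log2 ratio of −0.60 (−0.75 to −0.46). Birc2 was higher by less, with a ratio of 0.33 (0.13 to 0.55), and the intervals of the other 4 genes included 0. The Tnfrsf12a level of phagocytes differed in the same direction as that of the Xist-negative cells whose RNA may reach them, and the part of such RNA was not tested beyond the shares given above. In fibroblasts, where as many as 34.8% of 8359 genes passed 1.5-fold, Tnfrsf12a had a ratio of −1.11 (−1.65 to −0.60) and Birc2 one of 1.32 (0.24 to 2.53), the latter from 11 and 22 UMIs. The 6 epithelial markers summed to 6.38 CPM in control and 257 CPM in SHP099 fibroblasts, and Epcam, at 0 in control, stood at 80.9 CPM in SHP099, all from 1 cell. Without the fibroblasts that held an epithelial UMI, an alternative chosen after seeing the data that left 79 and 53 cells, the ratios were −1.12 for Tnfrsf12a and 1.21 for Birc2.

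In T cells, where 18% of 6920 genes passed 1.5-fold, Map3k14 did, at 1.09 with an interval that began at 0.00. The T cell ratio of Birc2 was 0.23 (−0.05 to 0.51). Its 2 T cell clusters went opposite ways. Cluster 8, led by Nkg7 and Cd3g, had a ratio of 0.45 (0.08 to 0.81), and cluster 15, led by Tnfrsf4 and Icos, one of −0.16 (−0.61 to 0.29). For Birc3 these clusters had ratios of −1.72 (−4.21 to −0.06), from 20 and 3 UMIs, and −0.15 (−1.17 to 0.86). In dendritic cells, where 43.3% of 7103 genes passed 1.5-fold, Birc3 had a ratio of −0.99 (−2.00 to −0.05), from 26 and 16 UMIs, and the other 5 genes had intervals that included 0.

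**Figure D2:**
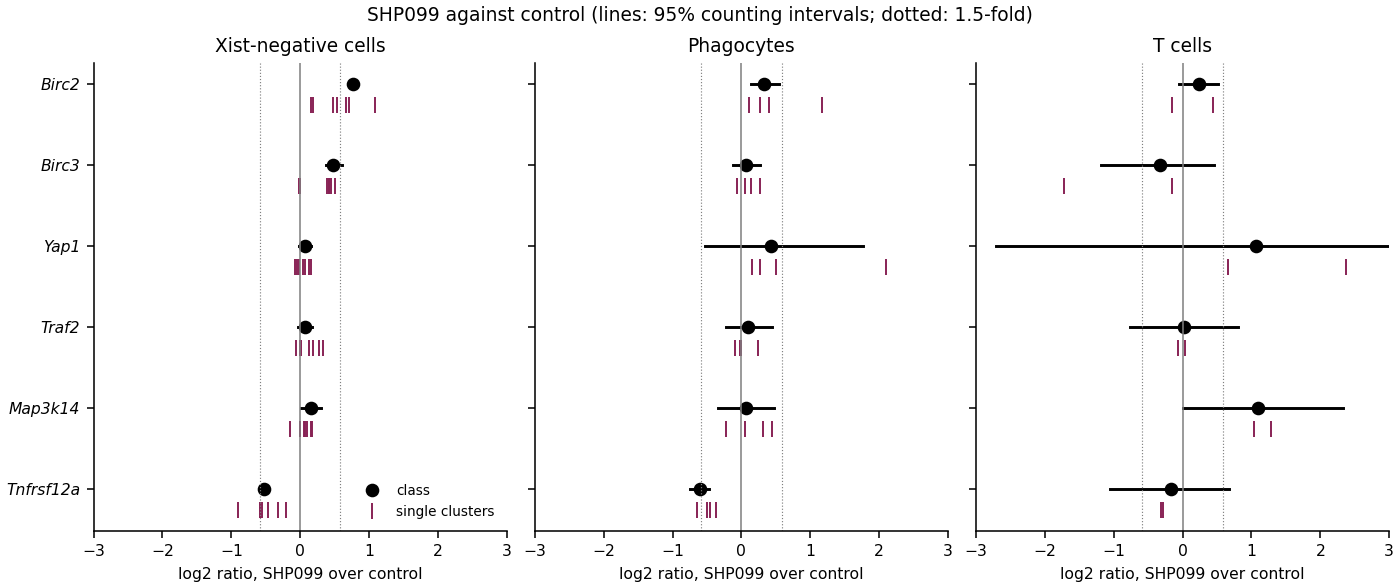
Log2 ratio of SHP099 over control for the 6 genes in Xist-negative cells, phagocytes and T cells, with lines for 95% counting intervals (cut where they pass the axis), ticks for single clusters and dotted lines at 1.5-fold. In Xist-negative cells the 7 ticks of Birc2 lie right of 0 and the 7 ticks of Tnfrsf12a left of it.

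The Xist-negative cells fell into 7 clusters that differed in Birc2, Birc3 and Tnfrsf12a by more than the libraries did. Cluster 3 was led by mitosis genes such as Top2a and Ube2c, cluster 0 by Ero1l and Bnip3, cluster 1 by Nusap1, a spindle gene, and histone genes, cluster 2 by Wnt5a and Aqp1, cluster 9 by Ogn and Mme, cluster 10 by Aspn and Postn, and cluster 11 by Ptn, H19 and Ifit1. Clusters 10 and 11 scored higher for fibroblast than for MC38 markers, although Hmga2, Igf2bp2 and Igf2bp3 were found in both and Xist stood at 4.18 and 3.57 CPM.

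Birc2 was lowest in cluster 0, at 21.5 and 24.0 CPM in control and SHP099, and in cluster 3, at 23.2 and 26.5 CPM. Cluster 2 held 29.1 and 42.6 CPM, cluster 1 held 39.7 and 65.3 CPM, and cluster 9 held 41.7 and 66.2 CPM. Cluster 11 was highest in both libraries, at 85.8 and 119 CPM. It thus reached the levels of some immune classes. Its control interval (77.9 to 94.2) lay within that of NK cells (69.04 to 136). Its SHP099 interval (112 to 126) lay within that of dendritic cells (85.2 to 153). Cluster 10 held 41.1 and 87.7 CPM, which placed it next in SHP099 and beside clusters 1 and 9 in control. The SHP099 level was above the control level in 7 of 7 clusters, and in 6 of them the counting interval of the ratio lay above 0. The log2 ratios ran from 0.15 in cluster 0 to 1.08 in cluster 10, and 3 of them passed 1.5-fold. Clusters 0 and 3 thus had the lowest levels of Birc2 and also the smallest ratios between the libraries. Cluster 1, which was led by genes of dividing cells as cluster 3 was, had a ratio of 0.71.

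Tnfrsf12a ran the other way. It was highest in cluster 3, at 339 and 295 CPM, and in cluster 0, at 302 and 242 CPM. Cluster 2 held 230 and 166 CPM, cluster 1 held 200 and 133 CPM, and cluster 9 held 180 and 119 CPM. Clusters 10 and 11 were lowest, at 147 and 99.5 CPM and at 144 and 77.1 CPM. This order was the same in both libraries. Not every cluster was above the other cell classes. Cluster 11 was below fibroblasts (188 and 87.0 CPM) in both libraries, in SHP099 within overlapping intervals. Clusters 9 and 10 were below fibroblasts in control only, within overlapping intervals. All 7 ratios were below 0 with their intervals, from −0.20 in cluster 3 to −0.90 in cluster 11, and 3 passed 1.5-fold.

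Birc3 followed Birc2 at lower values. Clusters 3 and 0 held 8.42 and 8.32 CPM and 9.20 and 9.19 CPM, with no difference between the libraries larger than the counting error. Clusters 10 and 11 held 19.6 and 26.4 CPM and 19.7 and 27.1 CPM. In the 5 other clusters than 0 and 3 the ratio lay above 0 with its interval, and no cluster passed 1.5-fold. Yap1, Traf2 and Map3k14 were flatter over the 14 combinations of cluster and library. From the lowest to the highest of these points Birc2 varied 5.43-fold, Tnfrsf12a 4.38-fold and Birc3 3.13-fold, against 1.87-fold for Map3k14, 1.73-fold for Traf2, 1.48-fold for Yap1 and 1.78-fold for the median of 6889 genes.

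**Figure D3:**
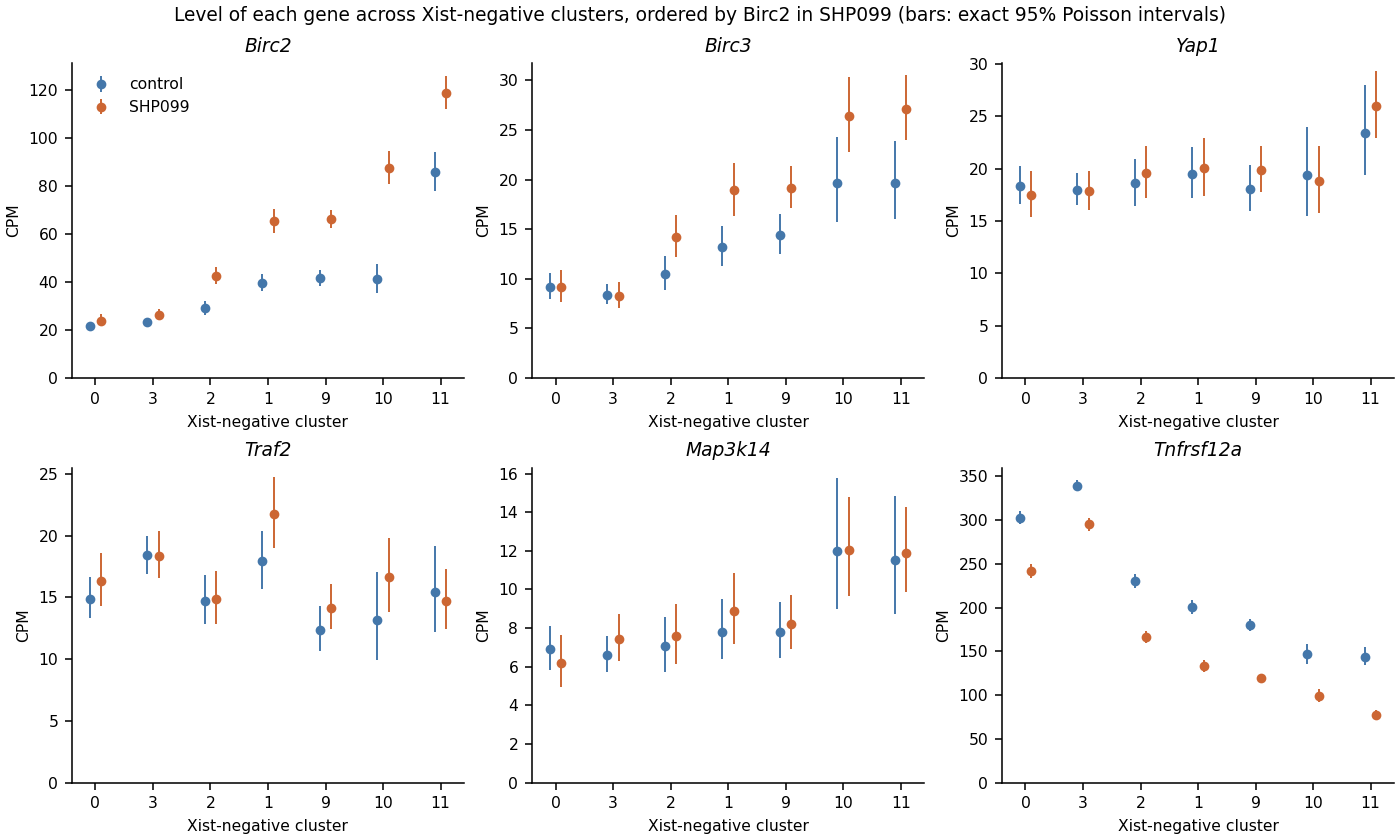
Level of each gene in CPM in the 7 Xist-negative clusters, ordered by Birc2 in SHP099, with 1 point per library and bars for exact 95% Poisson intervals; each axis starts at 0. Birc2 and Birc3 are higher in clusters 10 and 11 than in clusters 0 and 3, where Tnfrsf12a is highest, and the SHP099 points of Tnfrsf12a lie below the control points in every cluster.

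Over those 14 points Birc2 and Tnfrsf12a had a Pearson correlation of −0.95, Birc3 and Tnfrsf12a one of −0.975, and Birc2 and Birc3 one of 0.95, on log2 levels. With Birc2, the correlation was 0.80 for Yap1, 0.83 for Map3k14 and −0.07 for Traf2. The points share libraries and depth, and many other genes are arranged the same way. The median depth of the cells had a correlation of −0.79 with Birc2 and 0.79 with Tnfrsf12a, and Malat1 one of 0.87 with Birc2. Median depth was 34628 and 30748 UMIs in cluster 3 and 12501 and 14244 in cluster 11. The part of depth and RNA composition in these patterns was not tested further. The clusters also took different shares of the libraries, with cluster 11 at 369 control and 667 SHP099 cells and cluster 3 at 885 and 634. Weighting the clusters alike left a log2 ratio of 0.61 for Birc2, 0.36 for Birc3 and −0.45 for Tnfrsf12a.

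The 5 genes most like Birc2 over these points were Zfp36, an RNA decay factor, with a correlation of 0.98, Ppp1r12b, a myosin phosphatase subunit, Nr2f1, a nuclear receptor, Usp9x, a deubiquitinase, and Gadd45g, a stress gene, all at 0.97 or above. Those most like Tnfrsf12a were the RNA polymerase subunit gene Polr2h, the membrane insertion gene Emc4, Rmdn3, the translation release factor gene Etf1 and Plaur, the urokinase receptor gene, from 0.967 to 0.975. Birc3, whose likeness was looked up after its values were seen, ran closest to Ifih1, Selenow, Ifit1, Ifit3 and Ifit3b, 4 of them interferon-induced genes, from 0.977 to 0.981. Over 14 combinations of cell class and library, Birc2 had correlations of 0.90 with Rp9 and 0.89 with Phf3, which were among the genes most like it. Tnfrsf12a was most like Ston2, Zfhx3 and Klf4, at 0.95, 0.93 and 0.93.

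Single Xist-negative cells differed more in Birc2 and Tnfrsf12a than counting error gives. Cells were drawn down to 10000 UMIs, which left 3621 control and 3784 SHP099 cells and dropped 514 and 456 shallower ones. In control 73.9% of cells held no Birc2 UMI, 20.3% held 1 and 5.83% held 2 or more, with a highest count of 4. In SHP099 63.7% held none, 23.2% held 1 and 13.2% held 2 or more, with a highest count of 12. The variance over the mean, which is 1 where counts follow a Poisson law, was 1.23 and 1.75 for Birc2, against a median of 1.08 and 1.12 over genes whose mean was within 1.5-fold. Within clusters it was 1.19 and 1.60, so most of the excess was among cells of the same cluster. The higher SHP099 level therefore came with a longer tail of cells with many UMIs and with fewer cells at 0.

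Tnfrsf12a counts also spread beyond a Poisson law. In control 20.6% of cells held none and 16.4% held 5 or more, and in SHP099 36.2% held none and 9.06% held 5 or more. A Poisson law with the same mean would leave 8.58% and 18.9% of cells at 0. The variance over the mean was 2.32 and 2.51, and 2.08 and 2.18 within clusters, against medians of 1.41 and 1.32 for genes of like mean. Birc3 gave 1.04 and 1.13, and Yap1, Traf2 and Map3k14 lay between 0.986 and 1.04, close to the 1 of a Poisson law.

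**Figure D4:**
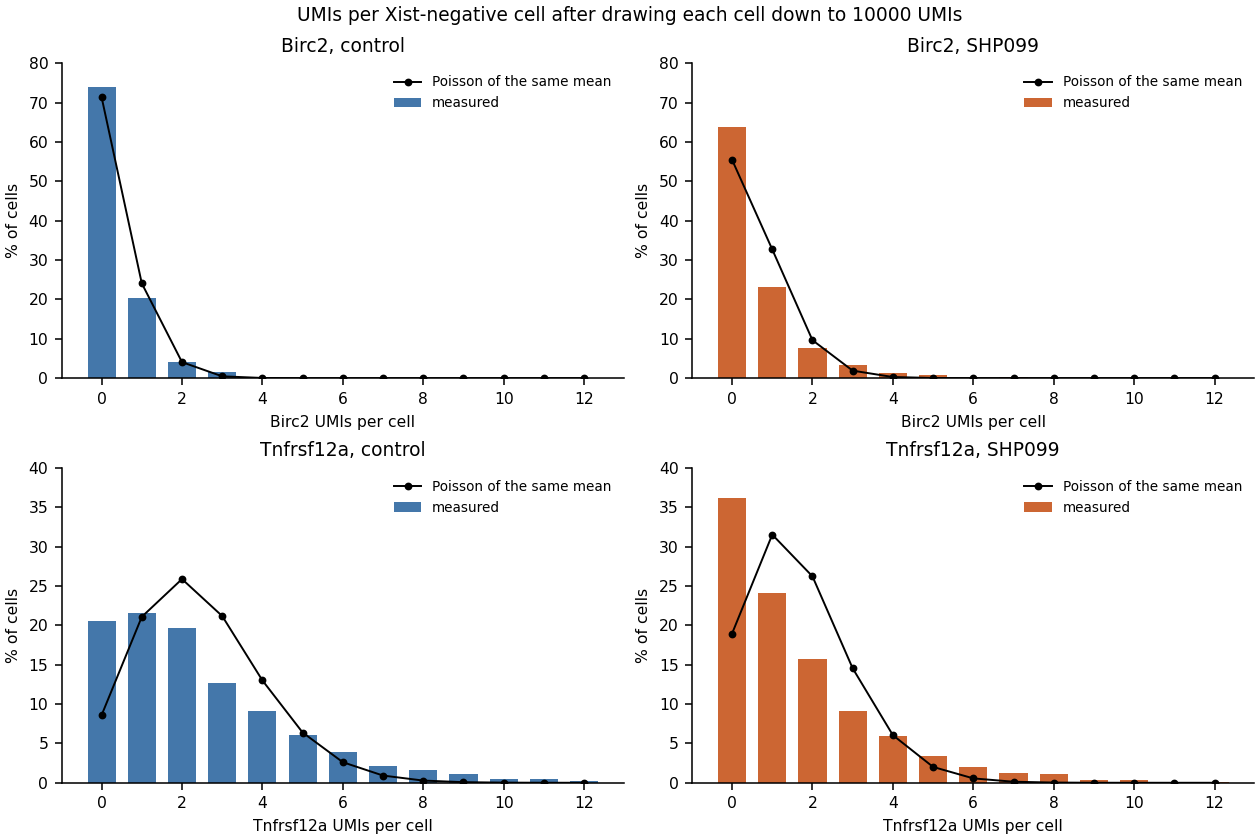
Share of Xist-negative cells by their number of Birc2 or Tnfrsf12a UMIs after drawing each cell down to 10000 UMIs, with bars for the measured cells and a line for a Poisson law of the same mean; the axis stops at 12 UMIs, while Tnfrsf12a reached 17. The bars exceed the line at 0 and in the tail in all panels, and the SHP099 panels show more cells with several Birc2 UMIs and more cells without Tnfrsf12a.

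In the same cells the 2 genes were counted together. Control cells with no Birc2 UMI held a mean of 2.55 Tnfrsf12a UMIs, those with 1 held 2.29, and those with 2 or more held 1.84. In SHP099 the means were 1.89, 1.37 and 1.06. The slope was seen inside some clusters, such as cluster 3 with 3.60, 3.25 and 2.79 in control and 3.12, 2.56 and 1.91 in SHP099. Only 24 and 23 cells of cluster 3 held 2 or more Birc2 UMIs, and no interval was computed for these means. In SHP099 the fall was not steady in cluster 1, with 1.46, 1.19 and 1.23, or in cluster 11, with 0.887, 0.797 and 0.830. It was not seen in 3 clusters of the control library, with means of 1.74, 1.81 and 1.91 in cluster 9, of 1.44, 1.45 and 1.69 in cluster 10, and of 1.22, 1.27 and 1.39 in cluster 11. The mean of Birc3 in cells with no, 1 and 2 or more Birc2 UMIs was 0.115, 0.147 and 0.175 UMIs in control. In SHP099 it was 0.132, 0.199 and 0.299. These means mix clusters that differ in both genes. Inside control clusters the rise was steady in clusters 10 and 11, with 0.172, 0.222 and 0.368 in cluster 11. It was not steady in control clusters 0, 1, 2, 3 and 9, with 0.148, 0.162 and 0.152 in cluster 9. In SHP099 it was steady in clusters 0, 1, 2 and 11 and not in clusters 3, 9 and 10. No interval was computed for the Birc3 means.

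Around Birc2, 27 other genes start within 2 Mb, and 5 of them reached 5 CPM in the Xist-negative cells. None of these 5 passed 1.5-fold, and their median log2 ratio was 0.07. Tmem123, a membrane protein gene 73.0 kb away, stood at 40.9 and 45.1 CPM, a ratio of 0.14. Birc3, whose start lies 36.1 kb from that of Birc2, had the ratio of 0.47 given above, and Yap1, at 168 kb, one of 0.07. The more distant Dcun1d5, a gene of the neddylation machinery, stood at 147 and 152 CPM, and Arhgap42 at 30.1 and 28.2 CPM, with ratios of 0.04 and −0.09. All 4 neighbours other than Birc3 thus had smaller ratios than both ligase genes. Over the 14 cluster points Tmem123 had a correlation of 0.87 with Birc2, and Dcun1d5 one of −0.59.

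**Figure D5:**
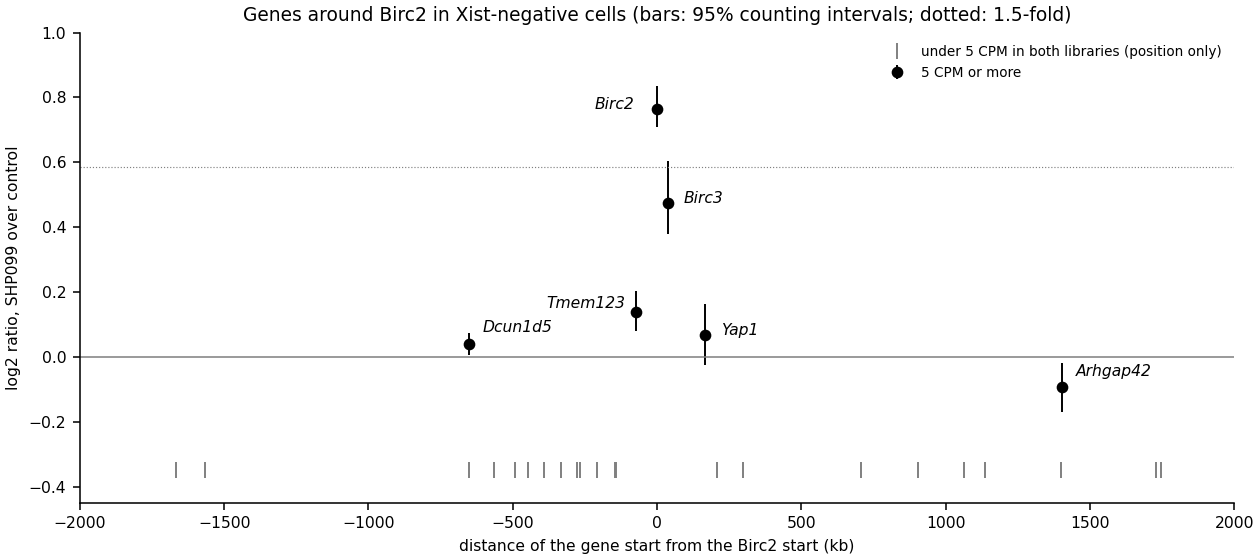
Log2 ratio of SHP099 over control in Xist-negative cells for Birc2 and the 5 genes within 2000 kb that reached 5 CPM, by the distance of their start from that of Birc2 in kb along the chromosome, with bars for 95% counting intervals and a dotted line at 1.5-fold; ticks give the position of genes under 5 CPM. Birc2 stands above the dotted line, Birc3 below it, and the other 4 within 0.14 of 0.

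The rest of the pathway was looked at in 9 gene lists, which overlap and were drawn up with results of these libraries known. Among the members at 10 CPM or more in Xist-negative cells, Birc2 was the only gene past 1.5-fold, beside the 1.36% over all genes. Of 4 measured receptors that bind TRAF or death adaptors, the lowest ratios were those of Tnfrsf12a and of Tnfrsf1a, a receptor of tumour necrosis factor, at 51.1 and 45.6 CPM with a ratio of −0.16. Tnfrsf1b, the other receptor of that cytokine, had the highest, at 10.1 and 14.96 CPM with a ratio of 0.55, and the lymphotoxin receptor gene Ltbr stood at −0.08. Of 2 measured ligands, Tnfsf12 had a ratio of 0.17 and Tnfsf9 one of −0.10.

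Of 15 measured genes of the TRAF complex and its ubiquitin machinery, 1 was called, Birc2, and the median ratio was 0.09. Its lowest members were Tnfaip3, which encodes the deubiquitinase A20, at −0.21, and Traf1 at −0.18. The 9 measured IKK kinases and NF-kB subunits lay between −0.17 for Rela and 0.11 for Tab2, with Nfkb2, the precursor that NIK signalling processes, at −0.11 and Relb, its partner, at 0.08. The 15 measured NF-kB target genes had a median of 0.01, with Nfkbie and Birc3 highest, at 0.48 and 0.47, and Nfkbib and Tnfaip3 lowest, at −0.25 and −0.21. None of these 15 passed 1.5-fold.

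Among 8 measured inhibitors of apoptosis and their antagonists, the median was 0.14. Birc5, which encodes survivin and is a gene of dividing cells, was lowest at 186 and 146 CPM with a ratio of −0.35, followed by Htra2 at −0.13, and Birc2 and Birc3 were highest. The 11 caspase and necroptosis genes had a median of −0.02, with Bak1 at −0.15, Mlkl at −0.14 and Casp8 at 0.26. The 13 genes of the Hippo pathway had a median of 0.11, with Wwtr1, the paralog of Yap1 that encodes TAZ, lowest at 268 and 240 CPM with a ratio of −0.16, Mob1b at −0.09, and the kinases Lats1 and Lats2 highest at 0.22. Of 12 YAP target genes none was called. F3, the tissue factor gene, and Dlc1 were highest at 0.38 and 0.27, Amotl2 and Crim1 lowest at −0.17 and −0.13, and the median was 0.13.

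In phagocytes 3 genes of these lists passed 1.5-fold, beside the 6.32% over all genes. They were Birc5 at 39.9 and 97.5 CPM with a ratio of 1.28, Tnfrsf12a, and Tnfrsf9, the receptor 4-1BB, at 22.4 and 12.1 CPM with a ratio of −0.86, which is named because it was found past the fold. A phagocyte cluster of 71 control and 241 SHP099 cells held the dividing-cell gene Mki67 at 125 and 193 CPM. The other phagocyte clusters held at most 19.6 CPM of it. The same cluster had the largest phagocyte ratio of Birc2, 17.4 and 39.8 CPM at 1.17 (0.23 to 2.31), from 10 and 73 UMIs. The part of its larger share of SHP099 phagocytes in the ratio of Birc5 was not tested. With 1 library per arm, differences between animals and between treatments cannot be told apart for any of these genes.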

How the data were processed

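Single-cell libraries of 1 control and 1 SHP099 tumour sample were made with the 10x Chromium 3' protocol, per the labels' protocols. The authors deposited filtered matrices of UMI counts made with Cell Ranger on mm10, also named GRCm38, per the submitters' processing notes. The matrix headers name software version 3.1.0, and no source used here names the gene annotation or says how strand was handled. The 6 genes, the 9 gene lists and the markers were chosen with earlier results of these data known.

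Barcodes with under 200 genes (99 in control, 103 in SHP099) or over 20% mitochondrial UMIs (194 and 260) were left out, and Scrublet within scanpy called 265 and 198 doublets, 3.33% and 2.51% of the rest, which were removed. Doublets of like cells remain. Cells of both libraries were clustered together by the Leiden method (resolution 1, seed 1) on 30 components of 2000 variable genes and 15 neighbours, without the 6 genes, the list genes and the neighbours of Birc2. Clusters with under 0.1 of the median cluster's Xist were called Xist-negative, whatever their markers. Any other cluster was named where at least 3 markers of a list were found in 10% of its cells and 2-fold above the rest. A cluster of low depth stayed unnamed where no marker of its best list was among its leading genes. UMIs were summed per class and library. Cells are not replicates, so no test was made. Positions came from GENCODE M21, which held 99.6% of the features, and promoters from RefSeq. Genes named beside the members were the 2 highest and 2 lowest of each list in Xist-negative cells, neighbours at 5 CPM or more, the 5 or 3 genes most like Birc2 and Tnfrsf12a (at 20 CPM or more), markers, Tnfsf12 and Ptpn11. A few genes that this rule names are not reported here. Intervals and draws were checked on data simulated from a Poisson law. The wider spread of Birc2 and Tnfrsf12a among cells was not simulated, so the check does not cover it. Tools were Python 3.11.15, scanpy 1.11.5, anndata 0.12.19, scikit-learn 1.9.0, igraph 0.11.9, pandas 2.3.3, scipy 1.17.1, matplotlib 3.10.9 and numpy 2.4.6.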

Additional observations from a re-analysis of the deposited data

Results flagged for a closer look

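Birc3 went opposite ways in 2 cell classes. Its log2 ratio of SHP099 over control was 0.47 in Xist-negative cells and −0.99 in dendritic cells, and each counting interval lay on its own side of 0. The dendritic value rests on 26 and 16 UMIs from 84 and 76 cells, and its interval was −2.00 to −0.05. In dendritic cells 43.3% of 7103 genes passed 1.5-fold. The difference between the classes was not tested, since each arm is 1 library.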

How the results depend on the processing

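No paired analysis was possible because each arm gave 1 library, and leaving out a replicate was not possible for the same reason. Of 192 alternative values of the 18 ratios (6 genes in 3 classes), 173 stayed within the counting interval of the reported ratio, 19 moved outside it and 0 reversed among ratios whose interval excluded 0. All that moved were in Xist-negative cells: 8 of 13 for Birc2, 7 of 13 for Tnfrsf12a, 3 of 13 for Birc3 and 1 of 13 for Map3k14. Ratios of phagocytes and T cells rest on fewer UMIs and have wider intervals, so staying inside them says less. In Xist-negative cells the log2 ratio of Birc2 was 0.70 with each cell counted alike, 0.61 with clusters weighted alike, 0.69 with 5 CPM added and 0.58 with cells assigned by their own markers. For Birc3 these values were 0.36 with clusters weighted alike, 0.36 with 5 CPM added and 0.27 by own markers, and for Tnfrsf12a −0.60 with each cell alike, −0.45 with clusters weighted alike and −0.34 by own markers. Alternatives chosen after seeing the data gave 0.66 for Birc2 and −0.58 for Tnfrsf12a at 15000 to 30000 UMIs, 0.70 and −0.50 without cluster 10, 0.67 and −0.47 without cluster 11, and 0.66 and −0.49 at 5% mitochondrial UMIs or fewer. Why these values moved was not tested. With genes from 1 CPM instead of 10 CPM, 280 genes instead of 96 passed 1.5-fold in Xist-negative cells, 1270 instead of 430 in phagocytes and 3663 instead of 1248 in T cells, where more genes of few counts enter. Scaling by the median gene moved all ratios of a class by 0.02 to 0.07. Depth limits the small classes: in T cells, where Traf2, Birc3, Yap1 and Tnfrsf12a rest on 1 to 39 UMIs per library, the sign of each varied between alternatives, as did that of Map3k14 in phagocytes.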

Other observations

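Within the dendritic cluster, the cells were divided, after the data were seen, by whether they held more migratory or more conventional dendritic markers. The 34 control and 23 SHP099 cells with more migratory markers held 350 CPM (247 to 483) and 230 CPM (155 to 328) of Birc2. The 28 and 36 cells with more conventional markers held 38.6 CPM (14.2 to 84.0) and 51.5 CPM (25.7 to 92.2), and the 22 and 17 cells with as many of both held 158 and 98.3 CPM. Traf1, an adaptor that binds the same ligases, stood at 691 and 521 CPM in the first set and at 109 and 98.4 CPM in the other. Relb, the partner of the NF-kB subunit that NIK signalling releases, stood at 322 and 222 CPM against 45.04 and 56.2 CPM. Map3k14 was counted in 8 and 12 UMIs in the first set and in 4 and 7 in the other, levels of 75.7 and 91.9 CPM and of 25.7 and 32.8 CPM whose intervals overlap in control and in SHP099. In both libraries Birc2 was thus highest in the cells with more migratory markers and lowest in those with more conventional ones.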
